A study of Mus musculus with 14 samples.

Results

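The 9 genes described here encode Nkx homeobox factors, transcription factors of the NK class, and they were followed through peak lists of histone and Polycomb ChIP-seq in mouse neural stem cells. They are Nkx2-1, Nkx2-2, Nkx2-3, Nkx2-5, Nkx2-9, Nkx6-1, Nkx6-2, Nkx1-2 and Nkx3-2, chosen by name as family members with roles in the ventral neural tube or in organs, out of 21631 protein-coding genes with a position on chromosomes 1 to 19 or X. For each gene and library the length under called peaks was measured over the gene and 10 kb to either side (the window), with positions from RefSeq on mm10. ChIP-seq recovers and sequences the DNA bound to a chosen protein or histone mark, here H3K27me3 (trimethylated lysine of histone H3), Suz12 and Ring1b. The cells carry the label PDGF Neural Stem Cells and the series design calls them mouse DIPG cells, DIPG being a glioma of the pons in children. They expressed histone H3.3 either with the K27M substitution, which replaces the methylated lysine by methionine, or as wild type (H3WT). All cells received a treatment of 12 days, either 3 µM EPZ6438 (EPZ), an inhibitor of the methyltransferase Ezh2, or its solvent DMSO. H3K27me3 was mapped in K27M EPZ, H3WT EPZ, K27M DMSO and H3WT DMSO cells with 2 libraries each, and Suz12 and Ring1b in K27M DMSO and H3WT DMSO cells with 1 library each. The labels do not say how the histone was introduced, whether a line was 1 clone, or whether replicates were separate cultures, so p-values reflect how far libraries of a group differ, which may be a technical spread only.

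Ezh2 and Suz12 are subunits of PRC2, the Polycomb complex that writes H3K27me3, and Ring1b is the ubiquitin ligase of PRC1, which binds the same kind of chromatin. Together they hold developmental regulators silent in cells that do not use them, and genes of homeobox factors are classical targets. Nkx factors act downstream of Sonic hedgehog in the ventral neural tube, where Nkx2-2, Nkx2-9, Nkx6-1 and Nkx6-2 divide progenitors into domains and repress the programmes of neighbouring domains. Elsewhere the family builds organs, among them the thyroid, lung, heart, spleen and skeleton.

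The lists differed widely in size. The EPZ lists of H3K27me3 held 201 and 340 peaks in K27M and 278 and 271 in H3WT. The DMSO lists held 2351 and 17980 peaks in K27M, against 13358 and 59899 in H3WT. H3WT DMSO replicate 2 covered 217 Mb and thus stood apart from the other DMSO lists, which covered 13.5 to 65.5 Mb, while K27M DMSO replicate 1 was the shortest of the 4. Read depth is unknown, no peak height was given, and a mark that is weaker in all cells cannot be told apart from one present in fewer cells.

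Promoters of the 9 genes were all found in the RefSeq table of GRCm38.p6 (250 bases before to 50 after the start site). CG dinucleotides, the step at which mammalian DNA is methylated and which is dense in many Polycomb targets, are in capitals below. The first promoter, of Nkx6-1, kept its H3K27me3 peak under EPZ in H3WT cells and not over the start site in K27M cells. That of Nkx2-5 kept it in every EPZ library with the fewest CG steps, that of Nkx3-2 was under a peak in all DMSO libraries and in no EPZ library, and that of Nkx2-2 was under no peak in any library. The regions are chr5:101664662-101664961, chr17:26841516-26841815, chr5:41764171-41764470 and chr2:147186353-147186652, all on the minus strand.
Nkx6-1: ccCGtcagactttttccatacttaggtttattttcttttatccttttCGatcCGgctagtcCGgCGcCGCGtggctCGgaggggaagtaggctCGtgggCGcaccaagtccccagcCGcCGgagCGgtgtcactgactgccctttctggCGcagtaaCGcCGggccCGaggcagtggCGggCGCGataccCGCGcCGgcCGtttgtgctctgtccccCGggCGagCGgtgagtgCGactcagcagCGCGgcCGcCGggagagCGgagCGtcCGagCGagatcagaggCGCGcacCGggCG
Nkx2-5: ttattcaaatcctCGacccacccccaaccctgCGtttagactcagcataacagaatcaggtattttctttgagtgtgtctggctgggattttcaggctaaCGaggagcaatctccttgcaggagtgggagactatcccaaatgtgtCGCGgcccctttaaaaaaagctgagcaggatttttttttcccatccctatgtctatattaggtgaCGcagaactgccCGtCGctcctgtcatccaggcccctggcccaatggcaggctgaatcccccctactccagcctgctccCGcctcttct
Nkx3-2: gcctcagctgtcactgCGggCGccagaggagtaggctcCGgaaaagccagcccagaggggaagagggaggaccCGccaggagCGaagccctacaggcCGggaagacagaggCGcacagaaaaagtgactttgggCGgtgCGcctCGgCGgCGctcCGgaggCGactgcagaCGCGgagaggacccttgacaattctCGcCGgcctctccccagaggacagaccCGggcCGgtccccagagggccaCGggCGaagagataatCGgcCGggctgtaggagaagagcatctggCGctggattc
Nkx2-2: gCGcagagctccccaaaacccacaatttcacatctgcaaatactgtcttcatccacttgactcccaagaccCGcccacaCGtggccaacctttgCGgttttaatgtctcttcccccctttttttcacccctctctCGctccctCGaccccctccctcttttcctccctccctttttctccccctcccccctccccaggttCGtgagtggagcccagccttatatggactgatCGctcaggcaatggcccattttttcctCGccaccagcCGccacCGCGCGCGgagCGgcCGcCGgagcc

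These promoters held 40, 9, 25 and 17 CG steps in the order shown. The other 5 held 12 (Nkx2-1), 15 (Nkx2-3), 15 (Nkx2-9), 32 (Nkx6-2) and 21 (Nkx1-2), and the median over 21045 promoters of the same length was 13.0. Among all promoters 5.14% had at least as many as Nkx6-1 and 59.5% at least as many as Nkx2-5. The genes with peaks in all EPZ libraries (9 to 40 CG steps) spanned the range of those with none (15 to 32). The letters CAAGTG, the core bound by Nkx2 factors, occurred on either strand in the promoters of Nkx2-2 and Nkx1-2, that is in 2 of 9, and in 13.0% of all promoters. A match is a description of the sequence and does not show binding.

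Ventral neural tube factors covered the whole range from no mark to wide domains. Nkx2-2 (chr2:147176485-147195434), which specifies the most ventral progenitors and later takes part in oligodendrocyte formation, had no H3K27me3 peak in the K27M EPZ, H3WT EPZ or K27M DMSO libraries. H3WT DMSO replicate 1 had none either, and replicate 2 had 3.96 kb of its 39.0 kb window under peaks. Those were 2 narrow peaks of 2.75 and 1.21 kb, lying at -9.79 to -7.04 kb and 16.9 to 18.1 kb from the start site (negative is upstream), and neither covered it. The start site used lies inside the annotated gene, whose upstream end at 147195434 was under the 2.75 kb peak. Nkx2-2 was the 1 member whose start site as used here lay under no H3K27me3 peak, and its only peaks came from the largest list. Its relative Nkx2-9 (chr12:56611389-56613569), expressed beside the floor plate, had none in the 4 EPZ libraries. In DMSO it had 14.2 and 21.8 kb under peaks in K27M, against 21.9 and 22.2 kb in H3WT, where the window is 22.2 kb. Its domain thus filled or nearly filled the window in every DMSO library but K27M replicate 1.

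Nkx6-1 (chr5:101659184-101664711), needed for motor neuron progenitors and for pancreatic beta cells, kept peaks in every library. Its cover was 6.46 and 6.31 kb in K27M EPZ and 12.7 and 12.3 kb in H3WT EPZ, then 13.8 and 15.1 kb in K27M DMSO and 17.2 and 19.7 kb in H3WT DMSO. The 4 groups did not overlap, and K27M EPZ was the lowest. Nkx6-2 (chr7:139579376-139582797), a partner of Nkx6-1 that is also expressed in maturing oligodendrocytes, had none under EPZ. In DMSO it had 4.11 and 7.92 kb in K27M, against 6.77 and 8.46 kb in H3WT. These were the narrowest domains of the marked ventral genes, and the genotypes overlapped.

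Nkx2-1 (chr12:56531935-56536908), required for thyroid, lung and ventral forebrain, also kept peaks in every library. Its cover was 11.5 and 13.8 kb in K27M EPZ and 17.3 and 14.2 kb in H3WT EPZ, then 20.0 and 21.2 kb in K27M DMSO and 22.2 and 25.0 kb in H3WT DMSO. All EPZ values lay below all DMSO values, and within each treatment both K27M libraries lay below both H3WT libraries. Nkx2-5 (chr17:26838664-26844988), a core regulator of the heart, had 9.87 and 16.8 kb in K27M EPZ and 17.9 and 15.5 kb in H3WT EPZ, then 22.9 and 26.3 kb in K27M DMSO and 26.3 and 26.3 kb in H3WT DMSO. K27M EPZ replicate 1 was the lowest, with its cover broken into 4 peaks, and the 26.3 kb window was full or nearly full in 3 DMSO libraries. Nkx2-3 (chr19:43612325-43615892), which acts in the mesenchyme of gut and spleen, had the longest cover under EPZ. Its values were 16.0 and 17.7 kb in K27M EPZ and 18.5 and 18.3 kb in H3WT EPZ, then 22.0 and 23.6 kb in K27M DMSO and 23.6 and 23.6 kb in H3WT DMSO.

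Nkx3-2 (chr5:41761483-41764220), a factor of the axial skeleton and of cartilage, had no H3K27me3 peak in the 4 EPZ libraries. In DMSO it had 17.2 and 19.5 kb in K27M, against 18.8 and 21.2 kb in H3WT. A gene with nearly as much cover as Nkx2-1 in DMSO thus had none under EPZ. Nkx1-2 (chr7:132596239-132599637), expressed in the caudal progenitors of the growing body axis, was likewise without peaks under EPZ. It had 5.77 and 14.8 kb in K27M DMSO, against 4.13 and 9.76 kb in H3WT DMSO. It was the 1 member whose K27M mean exceeded its H3WT mean in DMSO, and its groups overlapped.

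**Figure D1:**
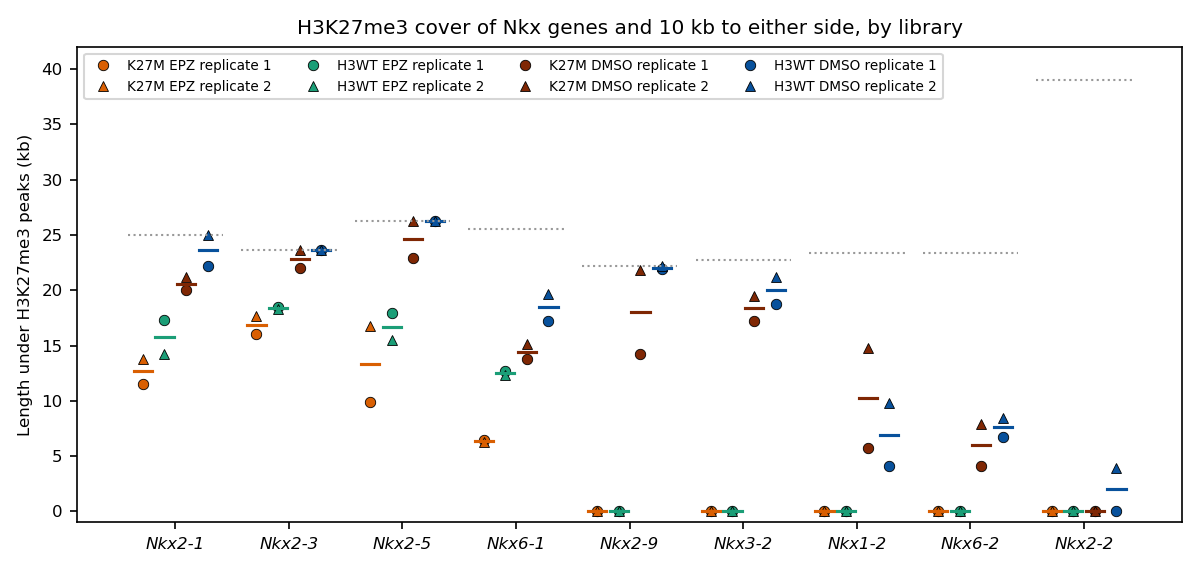
Length under H3K27me3 peaks (kb, y axis) over each Nkx gene and 10 kb to either side, with a circle for replicate 1, a triangle for replicate 2, a short line for the group mean of 2 libraries and a dotted line for the window length. EPZ points lie at 0 for 5 genes, while Nkx2-1, Nkx2-3, Nkx2-5 and Nkx6-1 keep 6.31 to 18.5 kb there.

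The comparison of EPZ with DMSO addressed how inhibition of Ezh2 changes the mark. Of the 9 genes, 8 had every EPZ library below every DMSO library, the exception being Nkx2-2. Over all 9749 genes with a peak in at least 1 of the 8 libraries the share was 15.3%, and no gene had the opposite order. The order needs a peak in all 4 DMSO libraries. K27M DMSO replicate 1 had peaks at 1527 genes, and 1491 of them had the order. The count thus mostly tells which genes were marked in every DMSO library and does not measure a stronger response to EPZ. In K27M alone the same 8 genes had both EPZ libraries below both DMSO libraries, beside 32.1% of the genes tested. In H3WT alone these 8 did too, beside 47.7%. Leaving out K27M DMSO replicate 1, the shortest DMSO list, kept the same 8 while the share over all genes was 37.3%. Leaving out H3WT DMSO replicate 2, the longest, also kept these 8, with a share of 26.1%.

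Among the 4 genes that kept peaks, Nkx2-1 averaged 14.2 ± 2.37 kb under EPZ and 22.1 ± 2.11 kb in DMSO (SD, n = 4 libraries each), a difference of -7.88 kb. Nkx2-3 averaged 17.6 ± 1.13 kb under EPZ and 23.2 ± 0.767 kb in DMSO (difference -5.58 kb). Nkx2-5 averaged 15.0 ± 3.56 kb under EPZ and 25.5 ± 1.70 kb in DMSO (difference -10.5 kb). For Nkx6-1 the means were 9.45 ± 3.55 kb under EPZ and 16.4 ± 2.60 kb in DMSO (difference -6.99 kb). Within the window EPZ thus left 57.5 to 75.9% of the mean DMSO cover at these genes. Nkx2-9, Nkx3-2, Nkx1-2 and Nkx6-2 were at 0 under EPZ, against 20.0 ± 3.86, 19.2 ± 1.64, 8.61 ± 4.75 and 6.82 ± 1.94 kb in DMSO. The exact permutation test over 70 relabellings gave p = 0.0286 for each of the 8 genes, two-sided, which is the smallest it can give. Adjusted by Benjamini-Hochberg over all 9749 genes this exact p became 0.187, so no gene passed 0.05 after adjustment, while 1491 did before it. For Nkx2-2 the exact p was 1.00. The median difference was -7.88 kb over the 9 genes and -2.03 kb over all genes tested. Many genes tested had little cover in DMSO, since H3WT DMSO replicate 2 had peaks at 9654 genes and K27M DMSO replicate 1 at 1527. Over the 1239 genes with peaks in all 4 DMSO and in no EPZ library, the median of mean DMSO cover was 9.99 kb. The contrast of medians thus does not measure a stronger response to EPZ.

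Cover is capped by the window, so the whole length of the peaks that touch it was also taken. At Nkx2-3 that length was 19.0 and 22.4 kb in K27M EPZ and 24.8 and 22.8 kb in H3WT EPZ, then 34.6 and 62.7 kb in K27M DMSO and 61.4 and 97.4 kb in H3WT DMSO. At Nkx2-5 it was 9.87 and 16.8 kb in K27M EPZ and 19.9 and 15.5 kb in H3WT EPZ, then 41.2 and 56.5 kb in K27M DMSO and 45.2 and 65.8 kb in H3WT DMSO. Mean whole length under EPZ was 40.9% of that in DMSO at Nkx2-1, 34.7% at Nkx2-3, 29.7% at Nkx2-5 and 50.1% at Nkx6-1. On this measure EPZ minus DMSO was -22.1 kb at Nkx2-1, -41.8 kb at Nkx2-3, -36.6 kb at Nkx2-5 and -9.41 kb at Nkx6-1. The 4 differences were thus larger than within the window, and Nkx2-3 then had a larger one than Nkx2-5. In DMSO the Nkx3-2 domain measured 33.6 and 39.0 kb in K27M, against 36.2 and 47.9 kb in H3WT, and reached 29.1 to 39.4 kb downstream of the start site.

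All 8 marked genes had their start site under a peak in each of the 4 DMSO libraries. Under EPZ this held in 4 of 4 libraries for Nkx2-1, Nkx2-3 and Nkx2-5. At Nkx6-1 the H3WT EPZ peaks ran from -4.17 to 8.53 kb and from -4.50 to 7.83 kb of the start site, so they spanned it. In K27M EPZ the main Nkx6-1 peak began downstream of the start, at 1.41 and 0.673 kb, and ended at 6.87 and 6.98 kb. Replicate 1 had a second peak of 1.00 kb upstream. The mark called at Nkx6-1 in K27M EPZ cells thus lay over the gene body and not over its start.

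In every case 100% of the EPZ cover of these 4 genes lay under the DMSO peaks of the same genotype and replicate number. It was also compared with Ring1b, mapped in DMSO. At Nkx2-3, Nkx2-5 and Nkx6-1, 100% of the K27M EPZ cover lay under Ring1b peaks of K27M cells, and at Nkx2-1 85.0 and 89.3% did. In H3WT the shares were 76.8 and 79.5% at Nkx2-1, 87.4 and 88.3% at Nkx2-3, 97.5 and 100% at Nkx2-5, and 73.1 and 75.4% at Nkx6-1. Ring1b itself covered 45.9 to 82.2% of these 4 windows in K27M and 36.4 to 68.8% in H3WT. Over the 152 genes with a peak in all 4 EPZ libraries the median share under Ring1b was 100% in K27M and 95.3% in H3WT, so in H3WT Nkx2-1, Nkx2-3 and Nkx6-1 lay below that median and Nkx2-5 above it. Taken the other way, the EPZ peaks took in 48.6 to 91.2% of the Ring1b cover at the 4 genes in K27M, against 72.3 to 100% in H3WT.

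Comparing K27M with H3WT in DMSO asked how the mutant histone changes the mark. Nkx2-1, Nkx2-9 and Nkx6-1 had both K27M libraries below both H3WT libraries, 3 of 9 genes, beside 24.9% of the 9709 genes tested. The order needs a peak in both H3WT DMSO libraries, which 8 of the 9 and 4629 of all genes had. Of those 4629 genes 2418 had the order. Among genes that could show it, the Nkx count is thus not above the background. None of the 9 had both K27M libraries above, which 0.288% of all genes had. Nkx2-1 averaged 20.6 ± 0.796 kb in K27M and 23.6 ± 1.99 kb in H3WT (SD, n = 2 each). Nkx6-1 averaged 14.4 ± 0.914 kb in K27M and 18.4 ± 1.83 kb in H3WT, and Nkx2-9 18.0 ± 5.33 kb in K27M and 22.0 ± 0.230 kb in H3WT. The differences were -2.97, -4.01 and -4.03 kb, against a median of -1.68 kb over the 9 genes and -2.49 kb over all genes tested. The cap limits these values, since the windows of Nkx2-3 and Nkx2-5 were full or nearly full in H3WT. By whole peak length K27M minus H3WT was -9.91 kb at Nkx2-1, -8.84 kb at Nkx6-1 and -8.68 kb at Nkx2-9. At Nkx2-3 and Nkx2-5 it was -30.8 and -6.64 kb with overlapping groups, while Nkx1-2 stayed higher in K27M. With 2 libraries against 2 the smallest exact permutation p is 0.33, which Nkx2-1, Nkx2-9 and Nkx6-1 had, so no difference between genotypes could pass 0.05.

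The other marked genes overlapped between genotypes in DMSO. Nkx3-2 averaged 18.3 ± 1.59 kb in K27M and 20.0 ± 1.70 kb in H3WT, and Nkx6-2 6.01 ± 2.70 kb in K27M and 7.62 ± 1.19 kb in H3WT. Nkx1-2 went the other way at 10.3 ± 6.38 kb in K27M and 6.94 ± 3.98 kb in H3WT, a ratio of 1.40 in replicate 1 and 1.52 in replicate 2 (exact permutation p = 0.667, n = 2 each). The counts moved with the libraries used, for without K27M DMSO replicate 2, 7 of 9 genes were lower in K27M, as were 45.7% of all genes. Without H3WT DMSO replicate 1 the count was 6 of 9, beside 96.3% of all genes, and the part of list size in these differences was not tested.

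Under EPZ, 3 of the 4 genes with peaks were lower in both K27M libraries, beside 38.3% of the 347 genes tested. The order needs a peak in both H3WT EPZ libraries, which these 4 genes had. Over all genes 213 had one, and 133 of those had the order, so 38.3% understates the background for these 4. Nkx6-1 averaged 6.38 ± 0.103 kb in K27M and 12.5 ± 0.272 kb in H3WT, a ratio of 0.508 and 0.512 in the 2 replicates. The gap of -6.13 kb exceeded the spread within either group of 2 libraries, a spread that may be technical only. The bare start site described above belongs to the same shorter peaks and is not a separate result. Nkx2-1 averaged 12.6 ± 1.56 kb in K27M and 15.7 ± 2.20 kb in H3WT, and Nkx2-3 16.8 ± 1.20 kb in K27M and 18.4 ± 0.134 kb in H3WT. Nkx2-5 averaged 13.3 ± 4.88 kb in K27M and 16.7 ± 1.71 kb in H3WT with overlapping groups, and in replicate 2 K27M was the higher by 1.30 kb. The exact permutation p was 0.33 for the 3 genes and 0.667 for Nkx2-5 (n = 2 each). Whether the genotype difference itself changed with EPZ was not tested.

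A peak in both libraries of a group was present at 4 of 9 genes in K27M EPZ and at the same 4 in H3WT EPZ, beside 0.740% and 0.985% of all protein-coding genes. In DMSO it was present at 8 of 9 in K27M and at the same 8 in H3WT, beside 7.06% and 21.4% of all genes. In all 4 groups the share at the Nkx genes was above that of all genes. The 9 genes were chosen with earlier results of these data known, so these shares are a description only.

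Suz12 and Ring1b, with 1 library per genotype and no replicate check, were called at some Nkx genes and not at others. Suz12 had a peak at 5 of 9 genes in K27M (Nkx2-1, Nkx2-3, Nkx2-5, Nkx6-1 and Nkx3-2), beside 4.04% of all genes. In H3WT it had one at Nkx2-1, Nkx2-3, Nkx2-5, Nkx6-1 and Nkx2-9, beside 2.30%. The 4 genes shared by the genotypes are those that kept H3K27me3 under EPZ. Ring1b had a peak at 7 of 9 genes in K27M and at the same 7 in H3WT, beside 8.02% and 6.99% of all genes, and was absent from Nkx2-2 and Nkx1-2. Over all genes, 152 had H3K27me3 peaks in all 4 EPZ libraries, and of these 94.7% had Suz12 and 98.0% Ring1b in both genotypes. Of the 1239 genes with peaks in all 4 DMSO and in no EPZ library, 14.0% had Suz12 and 28.9% Ring1b in both. Suz12 in at least 1 genotype was present at 97.4% of the 152 and 51.6% of the 1239 genes. Among Nkx2-9, Nkx3-2, Nkx1-2 and Nkx6-2, which belong to that second set, none had Suz12 in both genotypes, 2 had it in 1 genotype (Nkx2-9 and Nkx3-2), and 3 had Ring1b in both.

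The extent of Suz12 differed between genotypes in opposite ways at different Nkx genes. At Nkx2-5 it was 19.4 kb in K27M, as part of a single peak of 24.3 kb, and 10.8 kb in H3WT. The H3WT cover lay in 3 peaks of 3.98, 3.19 and 3.65 kb that left the start site used here free. The annotated gene reaches further upstream, to 26844988, and that end was under the 3.19 kb peak. At Nkx6-1 Suz12 cover was 3.87 kb in K27M, in peaks of 1.26, 1.60 and 1.00 kb, and 10.9 kb in H3WT, with a main peak of 9.05 kb over the start. Nkx2-1 had 4.16 kb in K27M, with the start site bare, and 11.1 kb in H3WT, with a peak of 8.01 kb over it. Nkx6-1 and Nkx2-1 thus had less Suz12 cover in K27M (ratios 0.353 and 0.376), and Nkx2-5 more (1.79). Nkx2-3 was nearly level at 14.4 kb in K27M and 13.8 kb in H3WT. Nkx3-2 had 1.68 kb in K27M and none in H3WT, while Nkx2-9 had none in K27M and 3.93 kb over its start in H3WT. Of 6 genes with Suz12 in either genotype, 3 had longer cover in K27M, beside 78.5% of all 989 such genes. Only 498 of the 989 had Suz12 in H3WT, and a gene with Suz12 in K27M alone, as Nkx3-2, counts as longer there. The 3 Nkx genes include Nkx2-3, whose whole Suz12 peaks measured 14.4 kb in K27M and 17.8 kb in H3WT, so by whole length the count was 2.

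Ring1b cover was longer in K27M at all 7 Nkx genes that had it, beside 68.4% of 2073 genes, some of them with Ring1b in a single genotype. It was 17.2 kb in K27M and 15.6 kb in H3WT at Nkx2-1, 19.4 kb in K27M and 16.1 kb in H3WT at Nkx2-3, and 20.3 kb in K27M and 18.1 kb in H3WT at Nkx2-5. Nkx6-1 had 11.7 kb in K27M and 9.29 kb in H3WT. The smallest values were at Nkx2-9, with 3.69 kb in K27M and 3.06 kb in H3WT, and at Nkx6-2, with 3.06 kb in K27M and 1.26 kb in H3WT. Nkx3-2 differed in form too, with 16.8 kb in 1 peak in K27M and 12.0 kb in 4 peaks in H3WT. Nkx2-1 had the same form, a single peak of 20.8 kb in K27M and 4 peaks in H3WT. In DMSO, Nkx3-2 therefore held a Ring1b domain over 73.7% of its window in K27M and 52.8% in H3WT. Nkx3-2 kept no H3K27me3 peak under EPZ, where Ring1b was not mapped. At Nkx2-9 the Ring1b peaks lay upstream in both genotypes, 2 in each, and left the start site bare. The K27M lists were the longer ones for both proteins, with 1252 Suz12 peaks against 631 and 1808 Ring1b peaks against 1754, and the part of list size in these ratios was not tested.

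**Figure D2:**
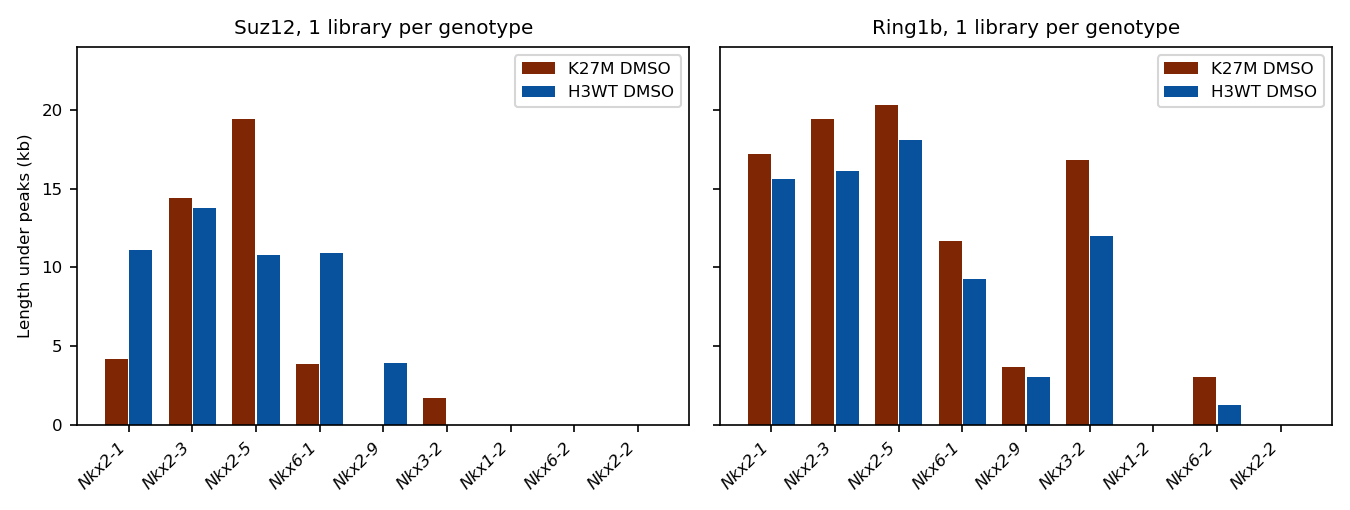
Length under Suz12 peaks (left panel) and Ring1b peaks (right panel) in kb over each Nkx gene and 10 kb to either side, with K27M DMSO bars left of H3WT DMSO bars and 1 library per bar. Suz12 is lower in K27M at Nkx2-1 and Nkx6-1 and higher at Nkx2-5, while Ring1b is higher in K27M at all 7 genes that have it.

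Genes that work with the Nkx factors were taken as lists. Of 28 neural tube patterning genes, which take in Sonic hedgehog signalling, factors of ventral domains and a few dorsal ones, 11 had a peak in both K27M EPZ libraries and 13 in both H3WT EPZ libraries, and in DMSO 21 did in K27M and 23 in H3WT. In this list 21 of 23 genes tested had all EPZ libraries below all DMSO libraries. The count was 15 of 21 for the organ partners described next, 4 of 5 for other Nkx genes, 1 of 4 for neural stem markers and 2 of 10 for markers of other cell types. Over all 9749 genes tested the share was 15.3%, and the 2 marker lists are near it. Since the order needs a peak in all 4 DMSO libraries, the high counts mostly tell how many genes were marked in DMSO. Pax3, a dorsal neural tube and neural crest factor, had 14.8 and 21.1 kb in K27M EPZ and 36.1 and 32.1 kb in H3WT EPZ, against 70.2 to 88.1 kb over the 4 DMSO libraries. Sim1, a factor of the interneurons that arise from the Nkx2-2 domain, had 16.9 and 21.9 kb in K27M EPZ and 22.1 and 22.8 kb in H3WT EPZ, against 36.6 to 57.1 kb in DMSO. Both thus kept cover under EPZ, as Nkx6-1 did. Olig2, which borders the Nkx2-2 domain and marks motor neuron and oligodendrocyte progenitors, had no peak in any of the 12 libraries, nor did its neighbour Olig1 or Dbx2. Nkx2-2 and Olig2 thus shared the near or complete lack of peaks.

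Of 24 organ partners, genes that act with Nkx factors in heart, lung, thyroid, gut or skeleton, 9 had a peak in both K27M EPZ and 12 in both H3WT EPZ libraries, and in DMSO 16 did in K27M and 19 in H3WT. Gata4, the heart partner of Nkx2-5, had 26.2 and 34.1 kb in K27M EPZ and 34.4 and 33.2 kb in H3WT EPZ, against 46.4 to 88.8 kb in DMSO. Pax9, the neighbour of Nkx2-9 in the genome and a factor of the axial skeleton like Nkx3-2, had 6.93 kb in K27M EPZ replicate 2 and none in the other EPZ libraries, against 37.0 to 40.9 kb in DMSO. The surfactant gene Sftpc, a target of Nkx2-1 in lung, and Pax8, its partner in thyroid, had none in any library.

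Of the 5 other Nkx genes, 1 had a peak in both K27M EPZ libraries and 3 in both H3WT EPZ libraries, and in DMSO 4 did in K27M and 5 in H3WT. Nkx1-1, the closest relative of Nkx1-2, differed from it in keeping 5.74 and 6.46 kb in K27M EPZ and 6.83 and 7.21 kb in H3WT EPZ. It had Suz12 cover of 6.15 kb in K27M and 6.66 kb in H3WT, where Nkx1-2 had none. Nkx2-4, which lies beside Nkx2-2 on chromosome 2, had 0 and 2.93 kb in K27M EPZ and 4.78 and 4.04 kb in H3WT EPZ, then 15.9 and 17.0 kb in K27M DMSO and 15.5 and 16.7 kb in H3WT DMSO. The mark was thus called at Nkx2-4 in all DMSO libraries while Nkx2-2 was bare in 3 of them. Nkx6-3 had no H3K27me3 peak in K27M DMSO, against 1.49 and 9.69 kb in H3WT DMSO. Of 10 neural stem markers none had a peak in both libraries under EPZ in either genotype, and 1 in K27M and 2 in H3WT did in DMSO. Of 14 markers of other cell types none did under EPZ, and 2 in K27M and 5 in H3WT did in DMSO. These peaks describe chromatin and do not measure expression. The neural stem counts are near the DMSO shares of all genes, 7.06% in K27M and 21.4% in H3WT, so they do not check the cell label. Under EPZ the shares of all genes were 0.740% in K27M and 0.985% in H3WT, so finding none of 10 or 14 is near them too.

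**Figure D3:**
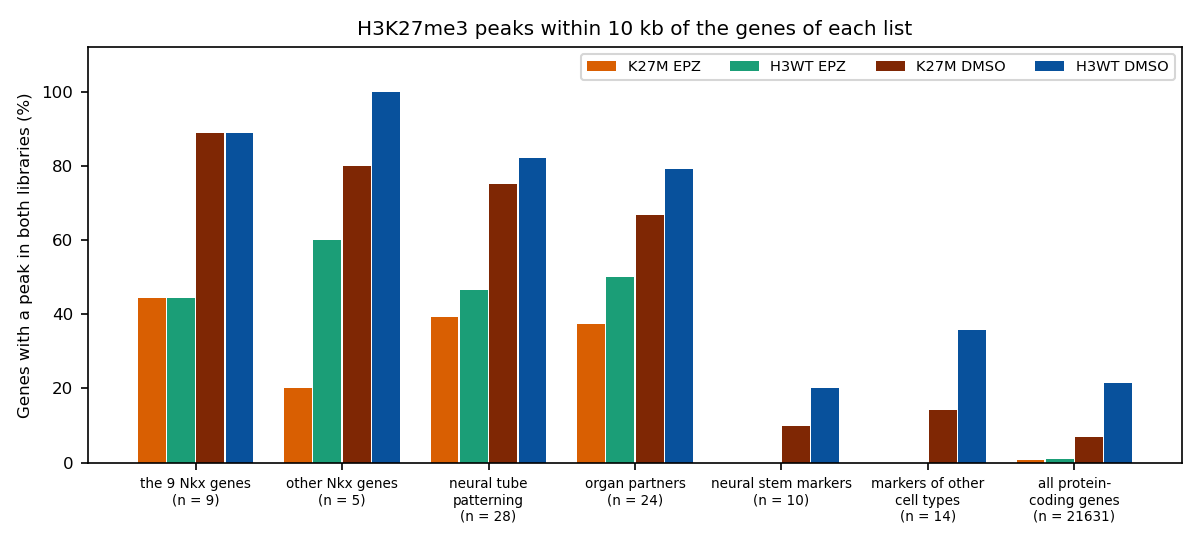
Share of genes (%, y axis) with an H3K27me3 peak within 10 kb in both libraries of a group, for the 9 Nkx genes, the other lists and all protein-coding genes. The Nkx, neural tube patterning and organ partner lists are high in every group, whereas neural stem markers and markers of other cell types have none under EPZ. All protein-coding genes are at 0.740% in K27M EPZ and 0.985% in H3WT EPZ, so having none there is near the share of all genes.

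For each Nkx gene with cover in at least 4 libraries, the genes whose covered share of the window was most alike over the 12 libraries were looked up, at least 1 Mb away. For Nkx2-5 these were Cdx2 and Foxa1, with mean absolute differences of 3.63 and 5.25 percentage points. For Nkx2-3 they were Foxd1 (4.33) and Evx1 (4.46), and for Nkx2-1 Foxl2 (6.51) and Sox14 (8.15). Of these 3 Nkx genes, Nkx2-5 had the closest match. Nkx6-1 had the least close first match, Foxl1 at 8.10 points, followed by Urad at 8.81. The nearest patterns to Nkx3-2 were Esx1 (4.38) and Magel2 (4.64), to Nkx2-9 Sertad4 (2.94) and Gm8909 (4.04), to Nkx1-2 Wnt8b (2.95) and Cbx8 (3.26), and to Nkx6-2 Fam217b and Gm41607 (2.25 each). Peaks were shared with a neighbour's window in 6 libraries for Nkx6-2 (Inpp5a), in 3 for Nkx1-2 (Lhpp) and in 1 for Nkx2-3 (Got1), so the cover of these genes cannot be assigned to the Nkx gene alone.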

How the data were processed

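H3K27me3, Suz12 and Ring1b ChIP-seq of 12 libraries was analysed as the deposited peak lists, 1 per library; the IgG libraries among the 14 samples were not analysed here. Bowtie 1.1.2 and mm10 are named per the submitters' processing notes. How peaks were called, at which threshold and against which control, and the read depth are not given in the sources used here. The deposited score of each peak was 0 in all 100144 lines, so only positions were used, and no counting interval could be given. Cover therefore rises with depth and enrichment as well as with the mark.

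Touching peaks of a library were merged (21 peaks). Cover was the merged length within a gene (RefSeq, GRCm38.p6, whose chromosomes are those of mm10) and 10 kb to either side; all 90 list genes matched by symbol. Groups and replicate numbers came from titles and descriptions. Differences in mean cover were tested two-sided by exact permutation over libraries, adjusted by Benjamini-Hochberg over all genes with a peak, after the script was tested on simulated data. Alternatives changed the window, peak width, overlap and libraries. All 9 genes are named; from each other list up to 3 genes with the longest and shortest mean DMSO cover could be named, as could the 2 genes most alike to each Nkx gene. The genes and lists were chosen with earlier results of these data known. Python 3.11.15, numpy 2.4.6, pandas 2.3.3 and matplotlib 3.10.9 were used.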

Additional observations from a re-analysis of the deposited data

Results flagged for a closer look

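In 4 Nkx genes 1 of the 4 DMSO libraries of H3K27me3 lay far from the others, with a gap to its nearest neighbour, as a share of the range, above Dixon's critical value for 4 samples, which chance passes in about 1 of 20 groups. At Nkx2-2 this was H3WT replicate 2, the largest list, with 3.96 kb against none in the other 3 (gap over range 1.00). In the remaining 3 genes it was K27M replicate 1, the shortest DMSO list: Nkx2-3 with 22.0 kb (1.00), Nkx2-5 with 22.9 kb (0.985) and Nkx2-9 with 14.2 kb (0.947). The other DMSO libraries sat at or near the full window there, so their values were equal or nearly so by construction. The 4 DMSO libraries mix both genotypes, and the part of list size was not tested.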

How the results depend on the processing

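The 10 kb regions at each gene end and the unclipped peak length, the second chosen after seeing the data, moved no count beyond 1.5 times. With 5 kb flanks 1 gene was lower in K27M in DMSO. In the gene body alone, which DMSO peaks mostly fill, 4 genes had EPZ below DMSO and 4 passed an exact p of 0.05, 0 were lower in K27M in DMSO, 1 was lower under EPZ, and Ring1b was longer in K27M at 2. With peaks of at least 3 kb, 1 gene was lower in K27M in DMSO, Suz12 was present at 3 in K27M and longer there at 1. Counting only peaks with at least 50% of their length in the window drops domains wider than the window: EPZ lay below DMSO at 5 genes, 5 passed an exact p of 0.05, and 5 had peaks in both K27M DMSO and 5 in both H3WT DMSO libraries. The EPZ minus DMSO difference then reversed to 12.1 kb at Nkx2-3 and 3.43 kb at Nkx2-5, and K27M minus H3WT in DMSO to 11.0 kb at Nkx2-3. No share over all genes is given beside the counts for these windows and peak widths.

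Leaving out 1 DMSO library (chosen after seeing the data) gave 3 to 7 genes lower in K27M in DMSO, beside 24.9 to 96.3% of all genes tested. Leaving out a replicate number leaves 1 library per group, so only signs can be read, and in DMSO 1 gene was then higher in K27M (Nkx1-2). Under EPZ 0 to 1 were higher in K27M, where K27M minus H3WT at Nkx2-5 reversed to 1.30 kb without replicate 1 and was -8.02 kb without replicate 2. Replicate numbers are not said to mark a shared batch. Replicate 1 deviations correlated at 0.83 between K27M and H3WT in DMSO, at -0.40 between them under EPZ and at -0.02 to 0.03 otherwise. With the replicate block 0 genes passed 0.05, since 0.125 is the smallest exact p over 16 relabellings. Unknown depth limits every comparison of cover.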
